A study of Caenorhabditis elegans with 16 samples.

Results

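Lysozymes and saposin-like proteins are 2 classes of secreted or lysosomal proteins with which Caenorhabditis elegans digests and resists bacteria. Genes with a name of the form lys, ilys or spp followed by a number were taken, which gave 39 of the 19974 named genes scored, made up of 10 lys, 6 ilys and 23 spp genes. Their occupancy by RNA polymerase was measured by RAPID (RNA polymerase DamID) in the hypodermis and the intestine of wild-type animals and of baf-1(G12T) mutants, which carry a point mutation in the DNA- and lamin-binding protein BAF-1. For RAPID, RPB-6, a subunit of the polymerase, is joined to the bacterial adenine methyltransferase Dam, which marks GATC sites near transcribing polymerase, and a GFP::Dam fusion gives the background of accessible sites. Both fusions came from a single-copy insertion and were made at trace levels from the hsp16.41 promoter once FLP had excised an mCherry::his-58 cassette. FLP was driven by dpy-7p for the hypodermis and by nhx-2p for the intestine, and all groups, wild type included, carried these transgenes. The 4 groups (wild-type hypodermis, baf-1(G12T) hypodermis, wild-type intestine and baf-1(G12T) intestine) each had 2 replicates per fusion, 16 libraries in all, from pools of 4000 L4 larvae grown for 48 h at 20 °C on E. coli GM119.

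The score of a gene was log2(Dam::RPB-6/GFP::Dam) after the polymerase fusion was normalized to GFP::Dam. A score of 0 thus means equal signal of both fusions after this scaling, and a negative score relatively more signal of GFP::Dam. A gene was called transcribed at an FDR under 0.05. A difference between groups was called when it was larger than 1 on the log2 scale, which is over 2-fold, in a gene called transcribed in at least 1 of the groups compared. Each group has 1 score per gene that combines its replicates, so no value below has an error and no difference was checked here against the spread between replicates. The paper counted a gene as changed between genotypes only when both replicates showed it, which was not applied here. The score tables give no reads per gene, so no counting interval could be given. The totals of reads mapped to GATC sites, as listed with the study, were least even between the replicates of the Dam::RPB-6 fusion in mutant hypodermis. Because whole animals were lysed, polymerase on a gene in fewer cells of the tissue and less polymerase per cell cannot be told apart.

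The lys genes encode lysozymes of the kind found in protists such as amoebae, and the ilys genes encode invertebrate-type lysozymes. Both hydrolyse the peptidoglycan of bacterial cell walls. The spp genes encode proteins with a saposin fold, and several of them, the caenopores, form pores in bacterial membranes as the amoebapores of Entamoeba do. In C. elegans many of these proteins are made by the intestine, where bacteria are both food and potential pathogens, and their genes are used as readouts of the innate immune response. Members were short genes, from 315 to 3477 bp with a median of 1036 bp, and had 1 to 11 GATC fragments with a median of 4, against a median of 7 over all named genes. A score therefore rested on few fragments in many of them, with a single fragment in spp-3, spp-4 and spp-14 and 2 or 3 fragments in another 8.

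Markers matched the labelled tissues only in part. Of 10 intestinal markers, 7 scored higher in the intestine than in the hypodermis of wild type and 9 did so in the mutant, led by act-5, the actin of intestinal microvilli, with 1.59, and the gut protease gene asp-1, with 2.14, in wild-type intestine. The intestinal list was called transcribed in 0, 0, 3 and 5 genes of the 4 groups in the order given above, which is kept for every list of 4 values below. The intestinal regulator elt-2 and the esterase gene ges-1 were called in none of the groups. Of 10 hypodermal markers 6, 5, 2 and 1 were called, with summed scores of 3.42, 7.78, -0.62 and -0.87. In the hypodermis this list thus had a higher sum in the mutant than in wild type, although dpy-10 and nhr-23 scored lower. Whether this bears on the values below was not tested. Of 13 markers of muscle, pharynx, neurons, germ line and coelomocytes, 2, 1, 1 and 3 were called, and their summed scores lay between -1.12 and 0.08.

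Most members were not called transcribed in either tissue. In wild-type hypodermis 2 of 39 members were called transcribed (5.13%), against 9.81% of all named genes, and in baf-1(G12T) hypodermis also 2 (5.13%), against 7.53%. In wild-type intestine 6 were called (15.4%), against 7.94%, and in baf-1(G12T) intestine 4 (10.3%), against 10.5%. Among genes with 1 to 11 GATC fragments, the range of the members, 7.29%, 5.89%, 5.64% and 7.43% were called in the 4 groups, in the order given above. In wild-type intestine the share of members was thus above both backgrounds, and it rested on 6 genes. Of these, ilys-4, spp-10, spp-13 and spp-19 share fragments with other named genes, whereas lys-1 and spp-17 share none. In all, 9 members (23.1%) were called in at least 1 group, against 23.9% of all named genes, and 30 in none. The members called were lys-1, lys-2, ilys-4, spp-8, spp-10, spp-13, spp-16, spp-17 and spp-19. Of the 30 members not called, 15 stayed within 0.2 of 0 in every group, among them lys-7 and ilys-3. A score below 0 in all groups was found for 18 members, and a score above 0 in all groups for spp-10, spp-13 and spp-19. The shares of all named genes with these traits, or within 0.2 of 0 in every group, were not counted. In the single groups, 35, 29, 31 and 23 of 39 members scored below 0. So did 14410, 11710, 16254 and 12886 of the 19974 named genes, so negative scores were common over all genes too.

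**Figure D1:**
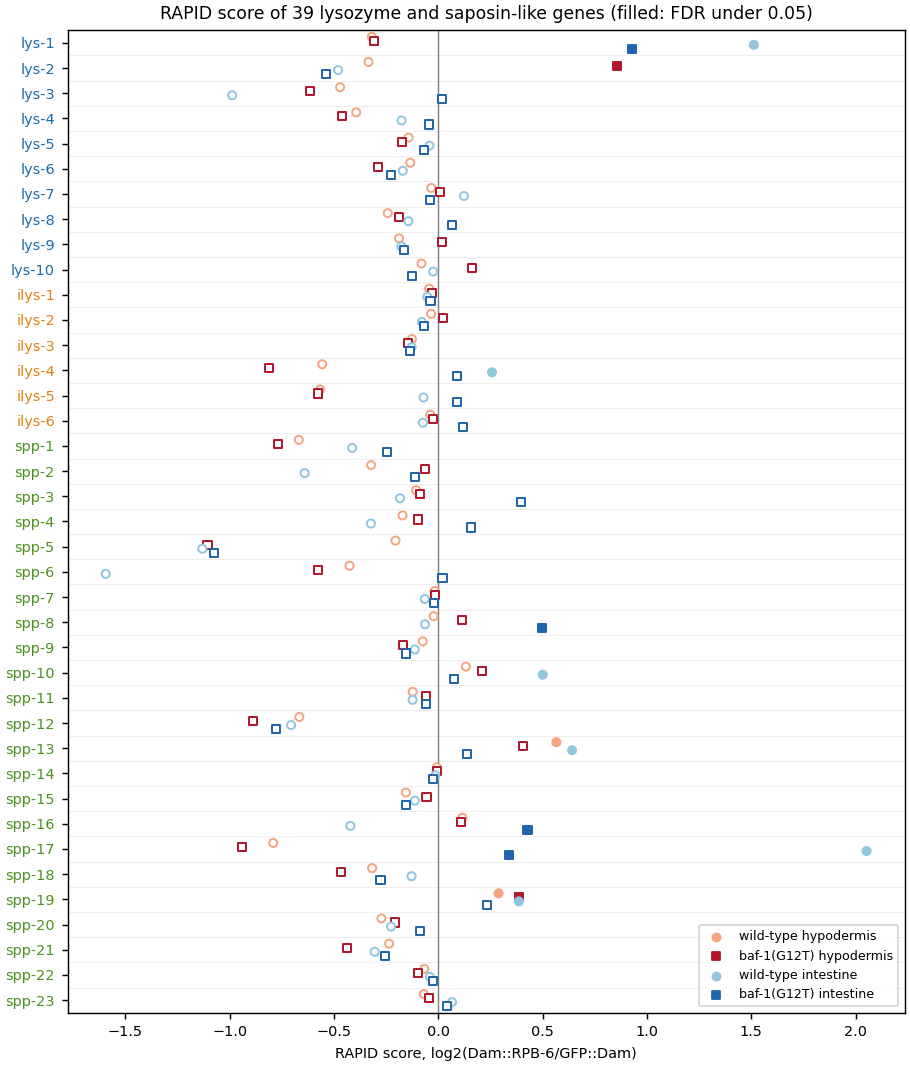
RAPID score, log2(Dam::RPB-6/GFP::Dam), of each of the 39 members in the 4 groups, with filled symbols for an FDR under 0.05. Most genes sit close to 0, while spp-17 and lys-1 stand to the right in the intestine and spp-6, spp-5 and lys-3 reach the lowest scores.

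Although most members were not called, the scores of the families were spread more widely than those of other genes of like fragment number in the intestine. Over the 14260 named genes with 1 to 11 fragments, the SD of the score was 0.23, 0.31, 0.27 and 0.21 in the 4 groups, and over the members it was 0.26, 0.39, 0.60 and 0.33. The medians of the members lay a little below those of all named genes, at -0.14, -0.10, -0.11 and -0.04 against -0.04, -0.02, -0.07 and -0.02. By subfamily, the spread in wild-type intestine came from lys (SD 0.63) and spp (SD 0.68), and was small in ilys (SD 0.14).

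Members were also found at both ends of the ranking of all genes. The lowest 1% of the 19974 genes held 5, 6, 3 and 2 members, which are 12.8%, 15.4%, 7.69% and 5.13% of the members. The genes were ilys-4, ilys-5, spp-1, spp-12 and spp-17 in wild-type hypodermis, and the same set with ilys-5 replaced by lys-3 and spp-5 in the mutant. In the intestine they were lys-3, spp-5 and spp-6 in wild type and spp-5 and spp-12 in baf-1(G12T). The highest 1% held lys-1 and spp-17 in wild-type intestine (5.13%), lys-1 alone in mutant intestine (2.56%) and no member in the hypodermis.

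Among the protist-type lysozymes, lys-1, an intestinal lysozyme gene induced by bacterial infection, had the clearest polymerase signal. Its 6 fragments gave hypodermal scores of -0.32 in wild type and -0.31 in the mutant, and intestinal scores of 1.51 in wild type and 0.93 in the mutant. It was called in both intestinal groups, at FDRs of 3.24e-05 (wild type) and 0.00024 (mutant), and ranked at positions 54 and 83 among all genes. Both intestinal scores were above both hypodermal ones. The neighbouring gene lys-2, whose expression in infected animals is known to depend on p38 MAP kinase signalling, behaved differently. Its 6 fragments scored -0.33, 0.86, -0.48 and -0.54, so that baf-1(G12T) hypodermis alone stood above 0, with an FDR of 0.00257 and position 408. The third gene of this group, lys-3, with 7 fragments, was not called and scored -0.47, -0.61, -0.99 and 0.02.

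The sequences before lys-1 and lys-2 are shown because these adjacent genes were called in different tissues. They are the 250 bases before the annotated start on WBcel235, from the RefSeq genome, for lys-1 chrV:10277654-10277903 on the plus strand and for lys-2 chrV:10281475-10281724 on the minus strand. Capitals mark TGATAA read on either strand, the core site of GATA factors, to which the intestinal regulators ELT-2 and ELT-7 belong.
lys-1: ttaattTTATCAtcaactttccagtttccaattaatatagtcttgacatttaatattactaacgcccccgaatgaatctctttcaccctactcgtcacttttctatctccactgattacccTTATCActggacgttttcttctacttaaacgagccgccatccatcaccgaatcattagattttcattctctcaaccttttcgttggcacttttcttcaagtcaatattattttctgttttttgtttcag
lys-2: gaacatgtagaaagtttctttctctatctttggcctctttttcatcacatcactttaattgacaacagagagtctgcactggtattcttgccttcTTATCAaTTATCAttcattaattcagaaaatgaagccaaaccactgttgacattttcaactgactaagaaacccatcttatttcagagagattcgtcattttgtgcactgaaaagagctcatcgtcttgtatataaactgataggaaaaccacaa
Both windows hold 2 matches, at -244 and -129 from the start of lys-1 and at -155 and -148 from that of lys-2, so their number does not separate the genes. Neither window holds a GATC site.

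The other lys genes had low or negative scores. The gene lys-7, needed for full resistance to several bacteria, scored -0.03, 0.01, 0.12 and -0.04, with the lowest FDR, 0.0649, in wild-type intestine. The gene lys-8, also an intestinal lysozyme gene that responds to infection, scored -0.24, -0.19, -0.14 and 0.07. None of the 10 lys genes scored above 0 in wild-type hypodermis, where they ranged from -0.47 (lys-3) to -0.03 (lys-7). In that group all 6 ilys genes and 14410 of 19974 named genes were below 0 as well, so this was not particular to lys. The cluster of lys-4, lys-5 and lys-6 was at or below -0.04 in all groups, with the lowest score, -0.46, for lys-4 in baf-1(G12T) hypodermis, and lys-9 and lys-10 lay between -0.19 and 0.16.

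Among the invertebrate-type lysozyme genes, 4 of 6 stayed close to 0 in all groups. The gene ilys-3, whose product helps to break down ingested bacteria, scored -0.13, -0.15, -0.13 and -0.14 over 8 fragments, a range of 0.02. Likewise ilys-1, ilys-2 and ilys-6 lay between -0.08 and 0.12. In contrast, ilys-4 and ilys-5, the members with most fragments (11 each), scored low in the hypodermis and near or above 0 in the intestine. The values of ilys-4 were -0.56, -0.81, 0.26 and 0.09, with an FDR of 0.0114 in wild-type intestine, and those of ilys-5 were -0.57, -0.57, -0.07 and 0.09. For both genes, each intestinal score was above each hypodermal score. All 11 fragments of ilys-4 also belong to atic-1, a purine synthesis gene on the opposite strand, which scored -0.31, -0.36, -0.11 and -0.08, and since DamID does not read the strand their signals cannot be told apart.

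The saposin-like genes held the extremes in both directions. The highest score of any member was that of spp-17, with 7 fragments on chromosome I, which gave -0.79, -0.94, 2.05 and 0.34. In the intestine it was called in wild type (FDR 3.97e-07, position 20 of all genes) and in the mutant (FDR 0.0143, position 816), and in the hypodermis it was in the lowest 1% of genes in both genotypes. The lowest score was that of spp-6, with 2 fragments, which gave -0.43, -0.58, -1.59 and 0.02. Only 7 genes of the genome scored lower than spp-6 in wild-type intestine, and it was called in no group.

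Called spp genes with lower scores fell into 2 patterns. Positive scores in all groups were found for spp-10, which resembles vertebrate prosaposin, with 0.13, 0.21, 0.50 and 0.08 and a call in wild-type intestine (FDR 0.00569). They were also found for spp-13, with 0.57, 0.41, 0.64 and 0.14 over 2 fragments and calls in both wild-type groups (FDR 0.0295 and 0.0247), and for spp-19. The scores of spp-19 were 0.29, 0.39, 0.39 and 0.23, and it was called in the first 3 groups, with FDRs of 0.0396, 0.0457 and 0.0206. In baf-1(G12T) intestine its FDR was 0.0531, just over the threshold. In the other pattern, the call was limited to baf-1(G12T) intestine, where spp-8 scored 0.50 (FDR 0.00944) and spp-16 scored 0.43 (FDR 0.0217). The remaining values were -0.02, 0.11 and -0.06 for spp-8 and 0.12, 0.11 and -0.42 for spp-16.

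Genes of well-known caenopores were not called, and most of their scores were strongly negative. The gene spp-1 (caenopore 1) scored -0.67, -0.77, -0.41 and -0.25. The gene spp-5 (caenopore 5, an intestinal protein that permeabilises bacterial membranes) scored -0.20, -1.11, -1.13 and -1.07, so that wild-type hypodermis stood apart from the other groups. The gene spp-12 (caenopore 12), known from pharyngeal neurons, scored -0.67, -0.89, -0.71 and -0.78, low in all groups. In spp-3 (caenopore 3), with its 1 fragment, the scores were -0.11, -0.09, -0.18 and 0.40, and the FDR in baf-1(G12T) intestine was 0.0745. Thus in wild-type intestine each of these 4 genes had a negative score. The 9 spp genes that are not described singly (spp-7, spp-9, spp-11, spp-14, spp-15, spp-18, spp-21, spp-22 and spp-23) lay between -0.47 and 0.07.

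Upstream sequences of 4 spp genes are shown to set genes called in baf-1(G12T) intestine (spp-8 and spp-16) against caenopore genes with the lowest scores there (spp-5 and spp-12). Each is the 250 bases before the annotated start, on WBcel235 from the RefSeq genome, with TGATAA on either strand in capitals. They lie at chrIV:8481414-8481663 (plus strand) for spp-8, chrV:10901304-10901553 (minus) for spp-16, chrX:7320355-7320604 (minus) for spp-5 and chrV:13889566-13889815 (plus) for spp-12.
spp-8: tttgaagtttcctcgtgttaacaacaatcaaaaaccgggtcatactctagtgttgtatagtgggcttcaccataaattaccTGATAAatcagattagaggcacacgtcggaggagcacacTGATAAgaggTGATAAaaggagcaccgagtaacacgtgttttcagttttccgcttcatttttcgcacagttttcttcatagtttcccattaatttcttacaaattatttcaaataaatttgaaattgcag
spp-16: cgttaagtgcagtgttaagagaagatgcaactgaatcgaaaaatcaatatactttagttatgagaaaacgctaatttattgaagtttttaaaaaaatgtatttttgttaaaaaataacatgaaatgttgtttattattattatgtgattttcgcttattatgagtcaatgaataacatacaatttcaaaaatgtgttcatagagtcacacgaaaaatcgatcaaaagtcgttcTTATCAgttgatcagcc
spp-5: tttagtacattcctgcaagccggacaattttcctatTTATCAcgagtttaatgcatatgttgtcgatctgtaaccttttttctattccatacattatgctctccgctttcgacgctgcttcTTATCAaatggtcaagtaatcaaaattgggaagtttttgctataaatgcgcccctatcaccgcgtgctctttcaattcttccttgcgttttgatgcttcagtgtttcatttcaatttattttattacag
spp-12: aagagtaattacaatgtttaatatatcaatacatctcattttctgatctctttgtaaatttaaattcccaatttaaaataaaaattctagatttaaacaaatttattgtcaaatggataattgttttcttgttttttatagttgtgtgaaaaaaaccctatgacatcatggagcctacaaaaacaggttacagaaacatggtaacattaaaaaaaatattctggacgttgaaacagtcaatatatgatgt
There are 3 matches in the window of spp-8, at -169, -130 and -120, 1 in that of spp-16, at -17, 2 in that of spp-5, at -214 and -129, and none in that of spp-12. A strongly negative intestinal score thus went with 2 matches in spp-5 and with none in spp-12.

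Over all members, 23 of 39 upstream windows (59.0%) held at least 1 TGATAA on either strand, compared with 5313 of 19865 protein-coding genes (26.7%). By subfamily the motif was found in 9 of 10 lys genes (90%), the exception being lys-4, in 1 of 6 ilys genes (16.7%) and in 13 of 23 spp genes (56.5%). The gene with the highest intestinal score, spp-17, had no match, and lys-8, with scores near 0 in the intestine, had 4. For comparison, the E-box CACGTG was found in 3 of 39 windows (7.69%) against 4.94% of protein-coding genes, and GATC, the site of Dam itself, in 26 of 39 (66.7%) against 38.3%. GATC shares its letters GAT with the GATA site but no match of TGATAA contains it. These are matches of letters and not binding sites, and where a leader is trans-spliced the annotated start can lie downstream of the start of transcription.

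**Figure D2:**
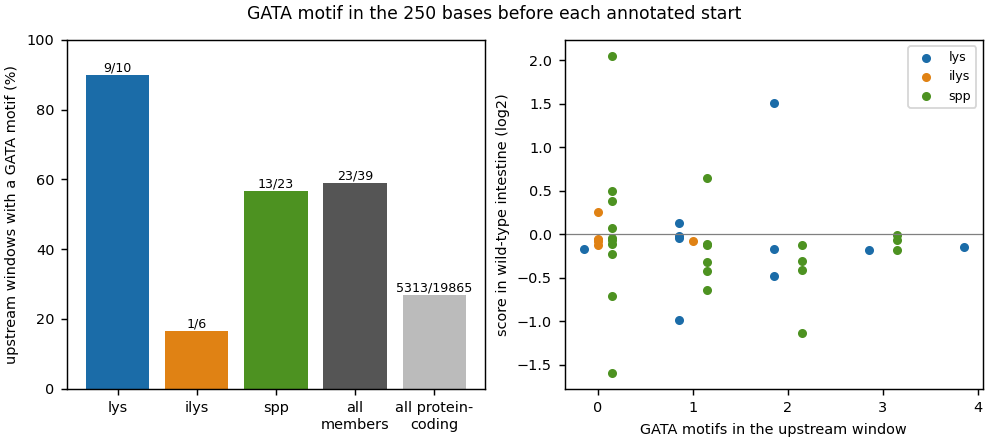
Left, percent of upstream windows (250 bases) with a GATA motif by subfamily, in all members and in all protein-coding genes, with counts above the bars. Right, score in wild-type intestine (log2) against the number of motifs, 1 point per member, offset sideways by subfamily, where spp-17 (2.05) has no motif, lys-1 (1.51) has 2 and lys-8 (-0.14) has 4.

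The first comparison asked which members differed between intestine and hypodermis of wild-type animals. Of 6 members called in at least 1 of these groups, 2 were higher in the intestine by the rule, spp-17 by 2.84 on the log2 scale (7.18-fold) and lys-1 by 1.83 (3.56-fold), and 0 were lower. Over all 3055 genes called in at least 1 of the groups, 3.96% were higher in the intestine and 7.63% lower. The next difference upwards was that of ilys-4, with 0.81, which passed 1 (1.03) only after quantile normalization. Without the requirement of a call, spp-6 was lower in the intestine by the same margin, with a difference of -1.17 (-0.80 after quantile normalization), where 1.26% of all named genes were lower. The median difference of the 39 members was -0.00, against -0.02 over all named genes, with 19 members above 0 and 20 below. Over all 19974 named genes, 6977 differences were above 0 and 12809 below. Differences past 1 were thus those of single genes, and by subfamily the medians were 0.08 for lys, -0.00 for ilys and -0.01 for spp.

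In baf-1(G12T) animals the same tissue comparison had spp-17 and lys-1 again higher in the intestine, by 1.28 (2.43-fold) and 1.24 (2.36-fold). One gene, lys-2, was lower in the intestine, with a difference of -1.39. These were 2 and 1 of 6 members called in at least 1 of the groups, while over all 3179 such genes 3.02% were higher in the intestine and 9.53% lower. The median difference of the members was 0.09, against -0.01 over all named genes, with 26 members above 0 and 13 below. Over all 19974 named genes, 8550 differences were above 0 and 11236 below. For lys-1 and spp-17 both intestinal scores exceeded both hypodermal scores, so their order between tissues was the same in the 2 genotypes. Whether the tissue difference itself changed with genotype could not be tested without replicate values.

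**Figure D3:**
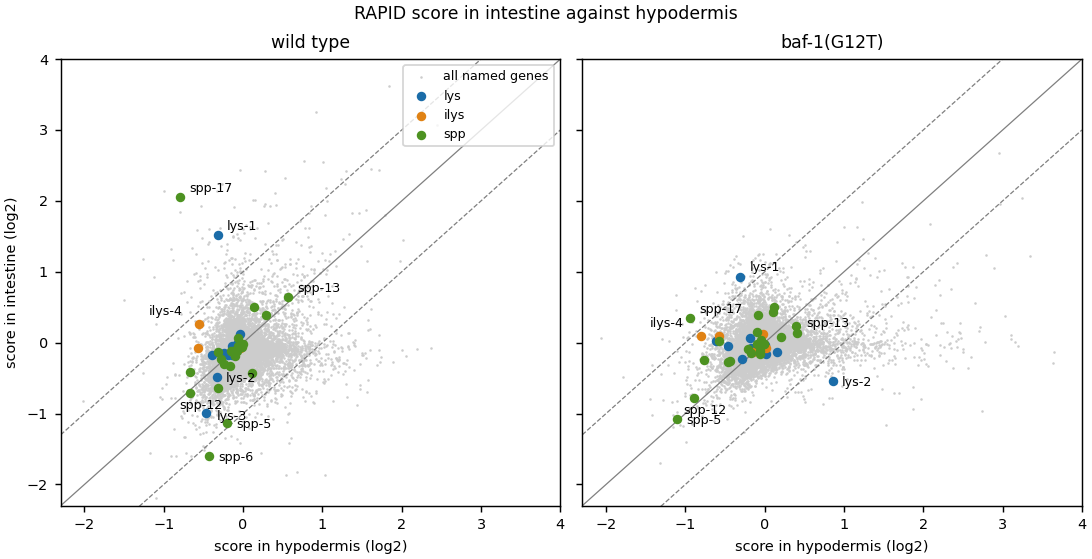
Score in the intestine against score in the hypodermis (both log2) in wild type (left) and baf-1(G12T) (right), with all named genes in grey and members coloured by subfamily. Dashed lines mark a difference of 1, and spp-17 and lys-1 lie above the upper line in both panels, spp-6 below the lower line in wild type and lys-2 below it in baf-1(G12T).

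The next comparison asked which members changed in the hypodermis of the mutant. In this tissue lys-2 was higher in the mutant than in wild type by 1.19 (2.29-fold), and it was the only member past the rule. It was 1 of 3 members called in at least 1 genotype, and 0 were lower. The call of lys-2 came from mutant hypodermis, where the Dam::RPB-6 replicates were least even in reads. Whether both replicates gave the difference was not checked. Over the 2759 genes called in at least 1 genotype, 7.65% were higher in the mutant and 3.30% lower. The largest difference downwards was that of spp-5, with -0.90, in a gene that was not called. Differences within 0.25 of 0 were found for 35 of 39 members (89.7%), against 84.1% of all named genes, and the median was 0.00, against 0.02 over all named genes. Across genes, the scores of the 39 members in the 2 genotypes had a Pearson's r of 0.73 and a Spearman's rho of 0.80 (0.48 and 0.45 over all named genes), which describes genes of the same libraries and not replicates. In the same comparison 3 of 10 hypodermal markers (dpy-13, rol-6 and lin-26) were higher past the rule. The summed score of all 10 was 7.78 in the mutant against 3.42 in wild type. Single markers moved in both directions, from -0.83 for dpy-10 and -0.37 for nhr-23 to 1.65 for dpy-13. The part of these changes in the difference of lys-2 was not tested.

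In the intestine members differed between genotypes in both directions. The called difference was that of spp-17, which was lower in baf-1(G12T) by 3.27-fold. Its log2 difference was -1.71, with -1.34 after quantile normalization and -1.76 after centring. The gene was 1 of 8 members called in at least 1 genotype, and 0 were higher. Over the 2998 genes called in at least 1 genotype, 2.87% were higher in the mutant and 2.87% lower. Without the requirement of a call, spp-6 was higher in the mutant by 1.61 and lys-3 by 1.01, where 0.556% of all named genes were higher. These scores moved from -1.59 and -0.99 in wild type to 0.02 in both genes, that is, from far below 0 up to 0, and neither gene was called in any group. The difference of lys-3 was under 1 after centring (0.96) and after quantile normalization (0.84).

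Smaller differences in the intestine did not pass the rule. Above 0.4 were spp-16 with 0.85, spp-3 with 0.58, spp-8 with 0.56, spp-2 with 0.53 and spp-4 with 0.48. Below -0.4 were lys-1 with -0.58, spp-13 with -0.50 and spp-10 with -0.42. The difference of lys-1 was -0.18 after quantile normalization. Differences within 0.25 of 0 were found for 28 of 39 members (71.8%), against 81.1% of all named genes, and the median was 0.01, against 0.03 over all named genes. Across genes, r was 0.57 and rho 0.47 for the 39 members (0.46 and 0.39 over all named genes), and 0.42 and 0.40 for the members without spp-17 and lys-1. None of the 10 intestinal markers passed the rule between genotypes here, and their summed score was 3.32 in wild type and 3.25 in the mutant. Single markers moved in both directions, from -0.94 for asp-1 and -0.34 for act-5, the markers with the highest scores, to 0.34 for ifb-2 and 0.28 for pept-1. Whether the lower scores of asp-1 and act-5 bear on those of spp-17 and lys-1 was not tested.

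**Figure D4:**
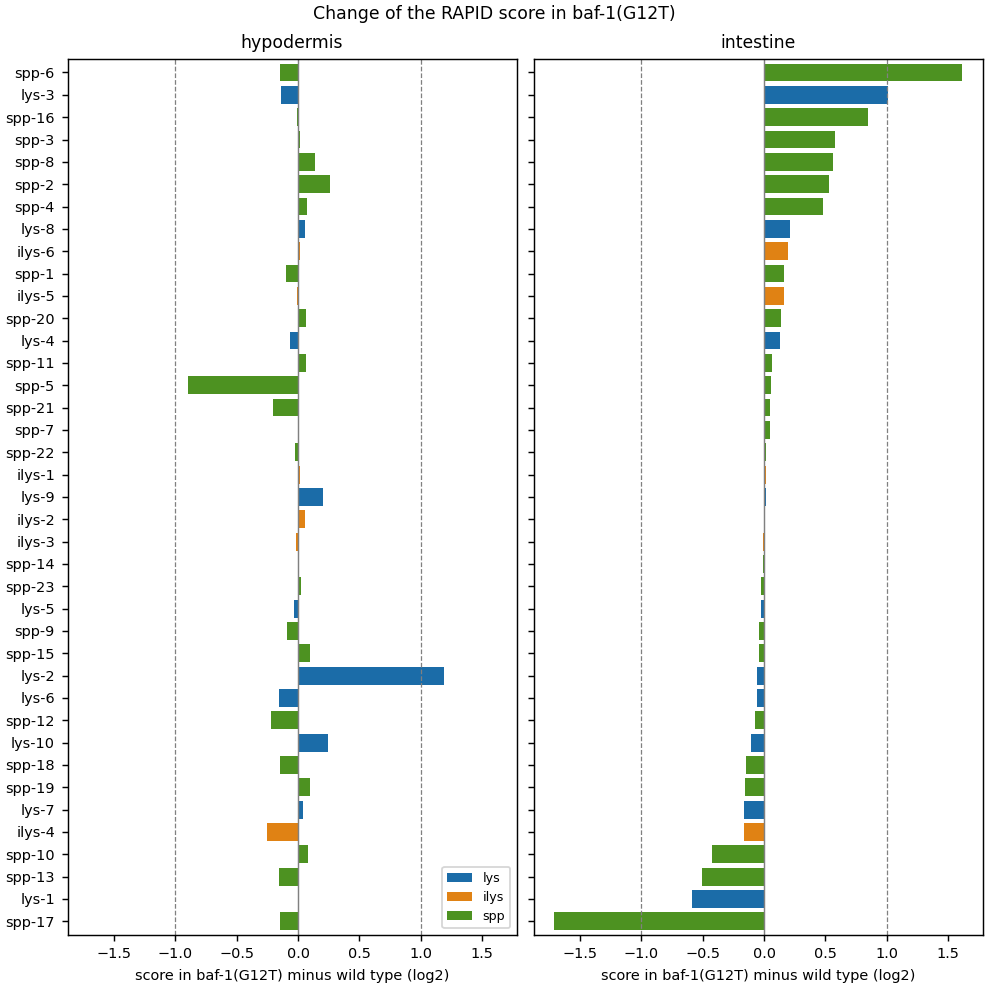
Score in baf-1(G12T) minus score in wild type (log2) for each member in hypodermis (left) and intestine (right), ordered by the intestinal difference, with bars coloured by subfamily and dashed lines at a difference of 1. In the hypodermis lys-2 passes 1 with 1.19, and in the intestine spp-6 (1.61) and lys-3 (1.01) pass it upwards and spp-17 (-1.71) downwards.

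Several members lie side by side in the genome, which allowed neighbours to be compared. With a gap of at most 5 kb, 22 members formed 8 clusters with 14 neighbouring pairs, and 17 members stood alone. No pair shared a GATC fragment, so each score of a pair came from its own fragments. In the pairs ilys-2/ilys-1, spp-10/spp-8 and spp-6/spp-4 these fragments abut at a common GATC site, so their scores are not fully separate readings. In the lys cluster on chromosome V, lys-1 and lys-2 are 1250 bp apart and differed by 1.99 in wild-type intestine and by 1.17 in mutant hypodermis, in opposite directions. The genes lys-2 and lys-3, 625 bp apart, differed by 1.47 in baf-1(G12T) hypodermis. In the hypodermis of wild type, these 3 genes differed by no more than 0.14 between neighbours.

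The cluster on chromosome X holds spp-3, spp-2, spp-6, spp-4 and spp-5 side by side. In wild-type intestine all of them had negative scores (-0.18, -0.64, -1.59, -0.32 and -1.13 in this order). In baf-1(G12T) intestine, spp-3, spp-2, spp-6 and spp-4 were higher, by 0.58, 0.53, 1.61 and 0.48, whereas spp-5, 1180 bp from spp-4, differed by only 0.06. None of the 5 genes was called in any group, and spp-3 and spp-4 have 1 fragment and spp-2 and spp-6 have 2. On chromosome IV, spp-10 and the gene next to it, spp-8, are 1007 bp apart. In the intestine their order turned, with 0.50 and -0.06 in wild type but 0.08 and 0.50 in the mutant.

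**Figure D5:**
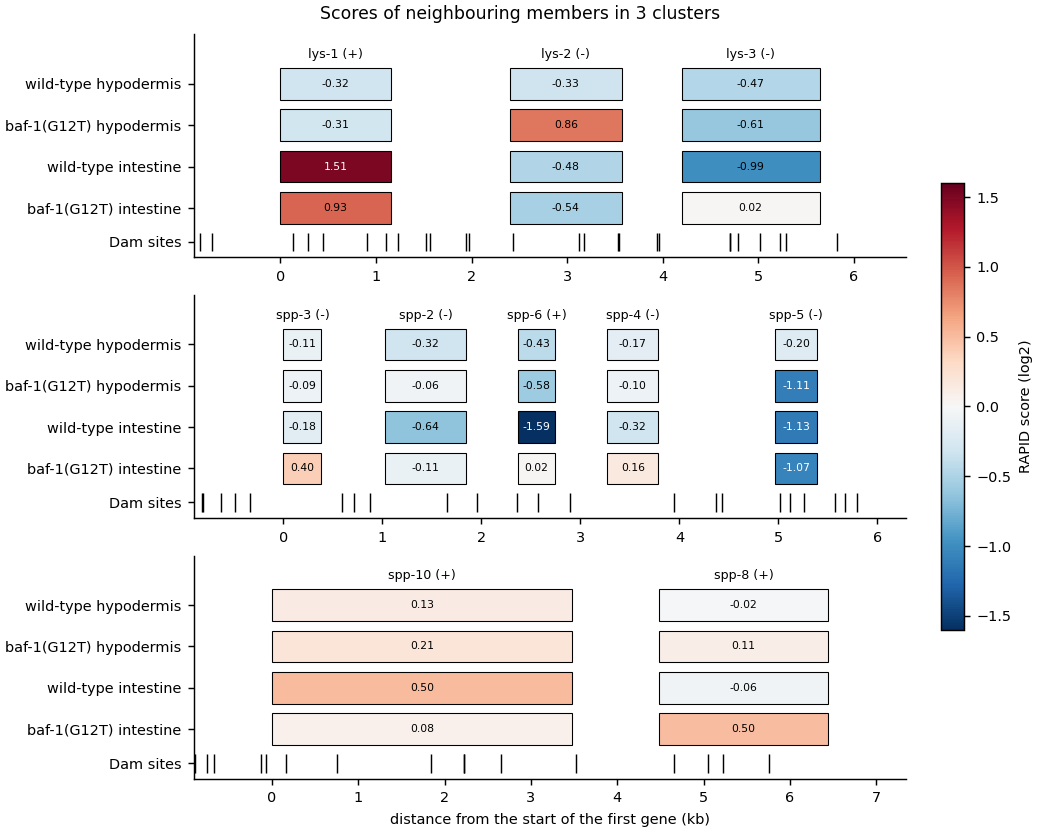
Maps of 3 clusters, with each gene drawn to scale as a box along the distance from the start of the first gene (kb), its strand in brackets, and 1 row per group filled and labelled with the RAPID score (log2). Ticks below mark Dam sites, and lys-1 (1.51) and lys-2 (-0.48) in wild-type intestine and spp-4 (0.16) and spp-5 (-1.07) in baf-1(G12T) intestine show how neighbours differ.

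Some members share fragments with other genes, whose signal cannot be told apart from theirs. At least 1 fragment was shared by 17 members with another named gene, and 22 members shared none, among them lys-1, lys-2, lys-3, spp-5, spp-6, spp-8 and spp-17. Besides ilys-4, all 4 fragments of spp-20 lie within twk-10, a potassium channel gene on the other strand, and the single fragment of spp-14 also belongs to K09F5.6. The gene spp-10 shares 4 of its 7 fragments with hlh-12, which scored -0.01, 0.05, 0.44 and -0.03, high in wild-type intestine as spp-10 was. The gene spp-16 shares 2 of its 4 fragments with F32D8.7, which scored 0.07, -0.38, 0.43 and -0.23, and was thus higher in wild-type than in baf-1(G12T) intestine, the reverse of spp-16. The gene spp-13 shares 1 of its 2 fragments with ced-8 and 1 with tag-123. These neighbours scored 0.15, 0.16, -0.03 and 0.32 (ced-8) and 0.42, -0.04, 0.24 and 0.40 (tag-123). The gene spp-19 shares 1 of its 5 fragments with twk-10, which was itself called in wild-type intestine (FDR 0.0129).

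Regulators of the intestinal immune response were examined beside these effector genes. Of 18 such genes, 8, 7, 8 and 10 were called in the 4 groups. They have a median of 17 GATC fragments against 4 in the members, and since a gene with fewer fragments needs a higher score to be called, these counts are not compared with those of the members. In wild-type intestine these were nsy-1, atf-7 and vhp-1 (a kinase, a transcription factor and a phosphatase of p38 MAP kinase signalling), skn-1, hlh-30, daf-16, pqm-1 and zip-2 (transcription factors of stress and pathogen responses). The receptor gene fshr-1 and the TGF-beta ligand gene dbl-1 were called in addition in baf-1(G12T) intestine. The highest scores were those of zip-2, with 1.48, 1.79, 1.37 and 0.93. The GATA factor gene elt-2 scored -0.14, -0.18, -0.29 and -0.08, and the p38 gene pmk-1 -0.16, -0.15, -0.35 and -0.09, and neither was called. Of the 18 genes, 3 scored higher in the intestine than in the hypodermis of wild type, and 9 did so in the mutant. Except for pqm-1, the genes called in wild-type intestine were also called in wild-type hypodermis. Past a difference of 1 was only pqm-1, with -0.67, -0.26, 0.43 and 0.56, higher in the intestine than in the hypodermis of wild type. Between genotypes, 0 of the 18 genes passed it in either tissue.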

How the data were processed

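RAPID was measured in hypodermis and intestine of both genotypes with 2 replicates per fusion. The authors mapped adapter-containing reads to ce11, used damidseq_pipeline to normalize the polymerase fusion to GFP::Dam and scored genes with polii.gene.call on WBCel235. The deposited score is the log2 of that ratio. The deposited FDR is a q-value by which the authors called a gene transcribed, and it was taken as it stands. Each table has 1 value per gene, and the way replicates were combined is not stated in these sources. The tables hold no reads per gene, so no counting error was computed. Library read totals served only to name the least even replicates. The lists of genes changed in both replicates that accompany the study were not used here.

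Of 19985 rows per table, 11 name no gene and were left out. The limma test planned for replicate values was not run, and no p-value was computed. Counts of members are set beside the share of all named genes that met the same rule. Members and lists were chosen with earlier results of these data known. Named are all members called in a group or past a difference of 1, 9 well-studied ones, and genes singled out after their values were seen (lys-4 to lys-6, lys-9, lys-10, ilys-1, ilys-2, ilys-5, ilys-6, spp-2, spp-4, spp-20 and, in ranges, 9 further spp genes). Gene positions came from the Ensembl annotation (release 115) and sequences from the RefSeq genome of the same assembly. Recounted GATC fragments equalled the deposited number in 38 of 39 members. The calling code was tested on simulated data. Alternatives were FDR thresholds of 0.01 and 0.1, a score above 0.2, at least 2 fragments, differences of 0.58 and 1.5, centring, quantile normalization and no FDR requirement. The scripts ran on Python 3.11.15 with pandas 2.3.3, numpy 2.4.6 and scipy 1.17.1, and figures were drawn with matplotlib 3.10.9.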

Additional observations from a re-analysis of the deposited data

Results flagged for a closer look

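The change in baf-1(G12T) went in opposite directions in the 2 tissues for 18 of 39 members (46.2%), against 47.2% of all named genes, so the count is close to the background. For 3 of these members the changes lay more than 1 apart with at least 1 change past 1. For lys-2 the score was higher in the mutant by 1.19 in the hypodermis and differed by -0.06 in the intestine, a gap of -1.25 (intestine minus hypodermis). For lys-3 the changes were -0.14 in the hypodermis and 1.01 in the intestine, a gap of 1.15. For spp-6 they were -0.15 and 1.61, a gap of 1.77. The gene spp-17 was not among the 3, because its changes went in the same direction, with -0.15 and -1.71. Its gap of -1.56 was nevertheless wider than those of lys-2 and lys-3. With 1 score per group the difference between tissues was not tested in any of these genes, and neither lys-3 nor spp-6 was called transcribed in any group.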

How the results depend on the processing

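Of 64 alternative counts of members, 51 stayed within 1.5 times the reported count and 13 did not. The settings of at least 2 fragments and of a score above 0.2 could not move a count, since every called member met both. Counts under these settings are among those that stayed. At an FDR threshold of 0.01, 0, 1, 3 and 2 members were called transcribed in wild-type hypodermis, baf-1(G12T) hypodermis, wild-type intestine and baf-1(G12T) intestine, and at 0.1 there were 4 in baf-1(G12T) hypodermis and 8 in baf-1(G12T) intestine. Without the FDR requirement, 1 member (spp-6) was lower in wild-type intestine than in wild-type hypodermis and 2 (spp-6 and lys-3) were higher in the mutant intestine. At a difference of 1.5, 0 members were higher and 0 lower in baf-1(G12T) intestine than in baf-1(G12T) hypodermis, and 0 were higher in the mutant hypodermis. At 0.58, 1 member (spp-16) was higher and 2 (lys-1 and spp-17) were lower in the mutant intestine. Of 20 values of single genes recomputed after centring or quantile normalization, 17 stayed past 1 and 3 did not, namely spp-6 between wild-type tissues (-0.80 after quantile normalization) and lys-3 in the intestine (0.96 and 0.84), and none changed sign. No paired analysis was possible because each table holds 1 value per gene, and for the same reason no replicate could be left out. Precision is limited by the few fragments per gene and by the lack of replicate values and reads per gene.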
